A study of Mus musculus with 10 samples.

Results

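The 10 genes described here set and remove the methyl mark on DNA, or are joined to those that do by metabolism or by recurrent mutation in myeloid leukemia: the DNA methyltransferases Dnmt1, Dnmt3a and Dnmt3b, their partner Uhrf1, the dioxygenases Tet1, Tet2 and Tet3, the isocitrate dehydrogenases Idh1 and Idh2, and the chromatin regulator Asxl1. They were chosen by name, not by their values, and are 10 of the 25078 genes listed in the count table, of which 18747 had at least 1 count and were tested. RNA was sequenced from Lin-Sca-1+c-Kit+ (LSK) cells, the bone marrow fraction that holds mouse hematopoietic stem cells and early progenitors, with 1 library per mouse, for 5 CM mice and 5 CM/miR-126Δ/Δ mice. CM mice carry a conditional knock-in (Cbfb 56M/+) which, once recombined, expresses the Cbfb-MYH11 fusion of inv(16) leukemia, and CM/miR-126Δ/Δ mice carry the same allele together with floxed miR-126. Both genotypes carried Mx1-Cre and received poly(I:C), and their marrow was taken 6 weeks later. By design the groups differed in the miR-126 alleles, and whether mice of both groups were littermates is not given in the sources used here. The RNA samples held 20.6 to 40.9 ng/µl in CM and 16.1 to 29.5 ng/µl in CM/miR-126Δ/Δ mice. No library from mice without the fusion was analysed here, and Mx1-Cre, which interferon switches on, also recombines in cells other than blood cells. The lines were kept on a C57BL/6 background, and mice of both sexes were used, 6 to 8 weeks old when poly(I:C) was given.

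Methylation of cytosine in CpG dinucleotides is a heritable mark associated with gene silencing at many promoters. Dnmt3a and Dnmt3b place it de novo, while Dnmt1, brought by Uhrf1 to the hemimethylated DNA behind the replication fork, copies it onto the new strand. The TET enzymes oxidize methylcytosine in a reaction that uses 2-oxoglutarate, a product of Idh1 and Idh2. DNMT3A, TET2, ASXL1, IDH1 and IDH2 are among the genes most often mutated in clonal hematopoiesis and myeloid malignancies. The question here is whether deletion of miR-126 in cells exposed to the fusion changed the transcript levels of these genes.

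All 10 genes were expressed in every mouse, and none was called different between the genotypes at p of 0.01 or below with a fold change of at least 1.5, against 0.288% of all genes tested. The 95% intervals of the 10 differences ran from a log2 fold change of −0.29 at the lowest to 0.33 at the highest, that is from 0.818-fold to 1.26-fold, so a change of 1.5-fold in either direction lay outside the interval of every gene. The values of the genotypes overlapped for each of the 10 genes, where 1.38% of the 11682 expressed genes showed no overlap (an expressed gene being one that reached an average of 1 RPKM, its counts scaled to library size and exon length). In CM/miR-126Δ/Δ mice 5 genes were higher and 5 lower on average, with a median log2 fold change of 0.017 against −0.019 over the expressed genes. Only Idh2 had an unadjusted p under 0.05, and 6.61% of all genes tested did. The lowest adjusted p among the 10 genes was 0.746 (edgeR quasi-likelihood test, Benjamini-Hochberg over all genes tested). In RNA from sorted cells, a change in the share of cells of one type and a change of RNA per cell cannot be told apart.

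**Figure D1:**
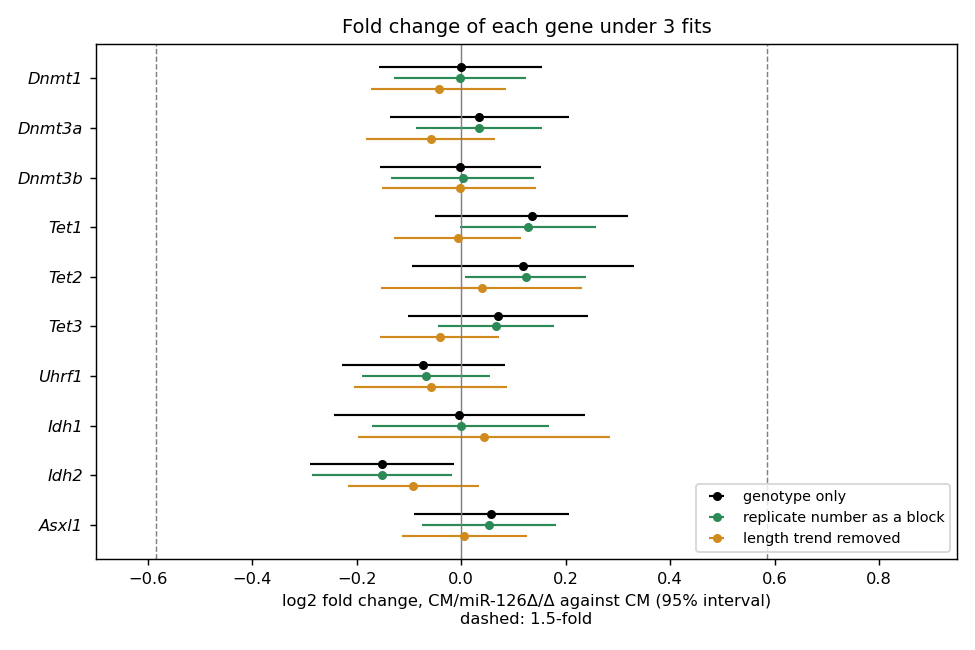
Log2 fold change of each gene in CM/miR-126Δ/Δ against CM mice, drawn with 95% intervals, from the fit on genotype, the fit with the mouse number as a block and the fit with the trend in exon length removed. In the fit on genotype the interval of Idh2 alone does not include 0, dashed lines mark 1.5-fold, and the long Tet genes move toward or past 0 when the length trend is removed.

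Library totals of 23649233 to 33202086 counts left the members with a counting error of 0.763% (Dnmt1) to 2.78% (Idh1) of the mean, under the spread between mice of 5.05% to 13.6%. The gate genes Kit and Ly6a (Sca-1) were at 135 to 193 and 43.5 to 70.2 RPKM in every library, and the progenitor genes Cd34 and Flt3 at 302 to 391 and 93.7 to 136. T cell and B cell markers summed to at most 4.85 and 4.38 RPKM, and erythroid markers to at most 11.8, with Hba-a1 at 0. Mature myeloid markers (Itgam, Ly6g, S100a8 and Ngp) ranged from 15.8 to 267 RPKM, with the highest sum in CM/miR-126Δ/Δ mouse 4. Mpo, Elane and Prtn3, genes of committed granulocyte-monocyte progenitors, summed to 688 to 1870 RPKM. Of the endothelial genes, Cdh5 and Kdr stayed at or under 0.331 RPKM, while Pecam1 made up nearly all of their sum of 49.3 to 64.6 RPKM. Reads on the precursor Mir126a numbered 4, 5, 0, 2 and 3 in CM mice 1 to 5, and CM/miR-126Δ/Δ mice had 0, a level too low to measure the deletion in single mice. Its host gene Egfl7 averaged 114 CPM (counts scaled to library size) in CM and 107 in CM/miR-126Δ/Δ mice. Xist had 57095 to 145380 counts in mice 1 to 3 of both genotypes and 8 to 21 in mice 4 and 5, so same-numbered mice shared this pattern.

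The miRNAs made from the deleted locus are shown first, because their seeds (bases 2 to 8, in capitals) set which sites could be sought in the members. Sequences are from RefSeq (GRCm38.p6), where they lie at chr2:26591402-26591423 on the plus strand and at chr2:26591363-26591385 and chr2:26591399-26591420 on the minus strand, within Egfl7.
mmu-miR-126a-3p: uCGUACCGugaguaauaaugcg
mmu-miR-126b-3p: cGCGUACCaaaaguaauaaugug
mmu-miR-126b-5p: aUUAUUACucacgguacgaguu
The 3 seeds differ from one another. The other arm, miR-126a-5p, is named only.

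The reverse complement of the miR-126a-3p seed, CGGTACG, occurred in the 3′ UTR of 0 of the 10 members, and its 6-base core GGTACG also in 0. Among 9638 expressed genes with a 3′ UTR in the GENCODE M1 transcripts, 0.342% held the 7-base match and 4.1% the 6-base match, so such a match was rare among all genes as well. For miR-126b-3p, 0 members held GGTACGC and 1, Idh1, held the 6-base GTACGC, against 0.685% and 3.97% of genes. GTAATAA, the match to miR-126b-5p, was found in 1 member, Dnmt3a, against 12.2% of genes, and the 6-base TAATAA in 5 members against 45.8%. The sites in Idh1 and Dnmt3a are shown because they are the 7-base matches and the single miR-126b-3p match among the members, with the match in capitals and 10 bases on each side.
Idh1, match to miR-126b-3p: tggggcctttGTACGCaaatgttgta
Dnmt3a, first match to miR-126b-5p: agctgatttgGTAATAActtttactgt
Dnmt3a, second match to miR-126b-5p: tttattgacaGTAATAAtgtacatttc
A match is a description of the letters only. Neither gene differed between the genotypes beyond the spread between mice (Idh1 log2 fold change −0.0036, 95% interval −0.243 to 0.236; Dnmt3a 0.035, −0.137 to 0.207).

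Ordered by level per length, Idh2 and the maintenance genes Dnmt1 and Uhrf1 lay at the top, and Tet2 and Tet1 at the bottom. Idh2 averaged 126.2 ± 10.4 RPKM over the 10 mice (SD) and Dnmt1 99.8 ± 5.04, which placed them above 98.0% and 97.0% of the 11682 genes. Uhrf1 followed at 48.7 ± 4.08 and Asxl1 at 33.99 ± 2.44, and each of these 4 genes was above the next in all 10 mice. Tet3 (24.5 ± 2.23), Dnmt3b (23.4 ± 1.87), Dnmt3a (21.5 ± 1.89) and Idh1 (19.6 ± 2.67) lay close together. Among them each gene was above its next neighbour in only 6 to 8 of 10 mice, so neighbours did not differ beyond their spread, while Tet3 was above Idh1 in all 10. Tet2 (13.9 ± 1.78) and Tet1 (12.8 ± 1.44) were lowest, both below Idh1 in every mouse, and exchanged places in 4 of 10 mice.

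**Figure D2:**
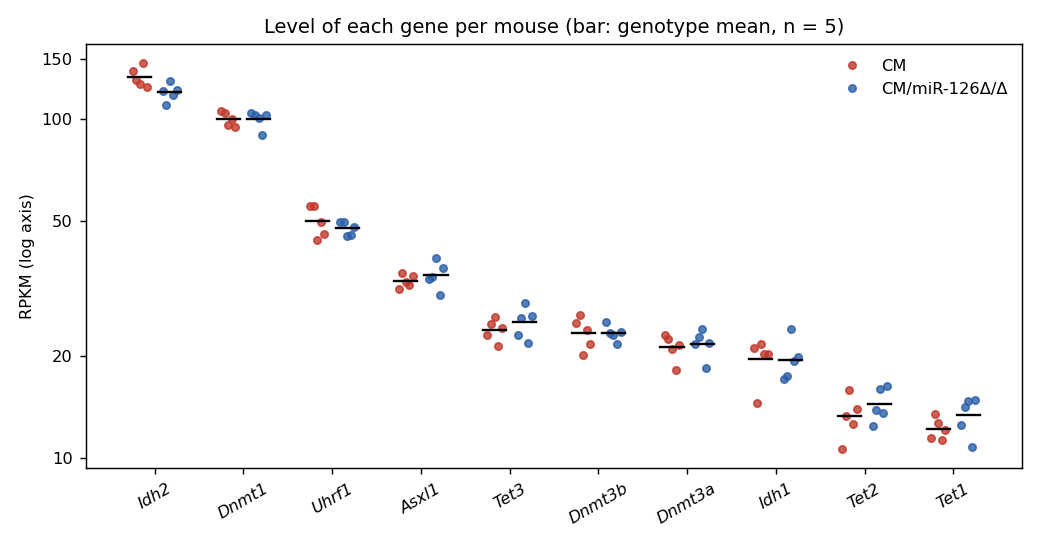
Level of each gene in RPKM (log axis) in every mouse, with the mean of each genotype, in the order of the overall mean. Idh2 and Dnmt1 lie above the rest in all 10 mice, and the points of the genotypes overlap for every gene.

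Dnmt1, which copies methylation after replication, lies at chr9:20907206-20959888 on the minus strand (mm10, as are all gene positions here). It had 664, 658, 608, 632 and 596 CPM in CM mice 1 to 5 and 657, 646, 636.5, 566 and 649 in CM/miR-126Δ/Δ mice 1 to 5. The means, 632 ± 30.1 and 631 ± 37.1 (SD, n = 5), were almost equal, and the lowest value of all belonged to CM/miR-126Δ/Δ mouse 4, the mouse with the highest mature myeloid markers. Their part in this value was not tested. The log2 fold change was −0.0013 with an SE of 0.073, and the sign of so small a value changed with the library scaling.

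Uhrf1, which binds hemimethylated CpG and recruits Dnmt1, lies at chr17:56303337-56323486 on the plus strand. CM mice 1 to 5 had 202, 202.5, 160.1, 181 and 166.5 CPM, and CM/miR-126Δ/Δ mice 182, 181, 165, 166 and 175. The 2 highest values and the lowest were in CM mice, so the genotypes overlapped. Its log2 fold change was −0.073 (SE 0.073, unadjusted p = 0.336 by edgeR). Per length, the ratio of Uhrf1 to Dnmt1 was 0.499 ± 0.0315 in CM and 0.477 ± 0.0216 in CM/miR-126Δ/Δ mice (SD, n = 5), with ranges that overlapped, and it was higher in the CM/miR-126Δ/Δ mouse of 1 of the 5 same-numbered pairs.

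The promoters of all 10 members were searched on both strands for core letters bound by E2F factors, TTTCCCGC, TTTGGCGC and TTTCGCGC. Other forms of the E2F core were not sought, so the shares below hold for these forms only. The windows run from 250 bases before to 50 after each start listed by RefSeq (GRCm38.p6). A match occurred in 2 of the 10 members, Dnmt1 and Uhrf1, against 4.43% of the 9096 expressed genes with such a window. TTTCGCGC and its reverse complement can share bases. The windows that held a match are printed from 5′ to 3′ on the strand of the gene, with the matches in capitals.
Dnmt1, chr9:20952574-20952873, minus strand: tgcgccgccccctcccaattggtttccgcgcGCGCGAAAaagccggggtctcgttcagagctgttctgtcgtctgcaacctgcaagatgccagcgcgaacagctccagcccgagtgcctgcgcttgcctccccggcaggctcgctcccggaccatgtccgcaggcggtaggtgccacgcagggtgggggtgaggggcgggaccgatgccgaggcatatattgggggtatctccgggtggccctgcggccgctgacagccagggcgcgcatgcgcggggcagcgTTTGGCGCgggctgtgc
Uhrf1, chr17:56304063-56304362, plus strand: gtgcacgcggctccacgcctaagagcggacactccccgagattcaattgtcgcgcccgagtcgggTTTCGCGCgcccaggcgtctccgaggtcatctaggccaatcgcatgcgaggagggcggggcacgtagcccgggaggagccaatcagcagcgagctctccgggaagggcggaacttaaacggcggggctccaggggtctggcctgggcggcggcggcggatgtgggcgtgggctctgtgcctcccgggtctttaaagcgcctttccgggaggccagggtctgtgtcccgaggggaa
Each of the windows holds 33 CpG. In the Dnmt1 window the matches begin 219 bases before and 33 bases after the listed start, and in the Uhrf1 window 185 bases before it. RefSeq lists other starts of both genes whose windows held no match, and which start was used in these cells was not measured.

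Over the 10 mice, the genes whose centred log2 profile was closest to that of Dnmt1 were Ints7, Chaf1a, Ccdc127, Flii and Dnaaf5, with root mean square differences of 0.0319 to 0.0388 where the median gene had 0.143. Chaf1a is a subunit of the chromatin assembly factor that works at the replication fork. Those closest to Uhrf1 were E2f3, Lig1, Dnmt3b, Bcl7a and Pdlim1 (0.0438 to 0.0532, median gene 0.166). E2f3 is a cell cycle transcription factor and Lig1 joins Okazaki fragments. Functions are given here for Chaf1a, E2f3 and Lig1 only, and whether the nearest genes share a function was not tested. Measured in the same way, a gene with no variation would lie 0.0706 from Dnmt1 and 0.112 from Uhrf1. These distances are a description over 10 libraries that also share differences in depth and composition, and genes that vary little are closer to any gene that does.

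**Figure D3:**
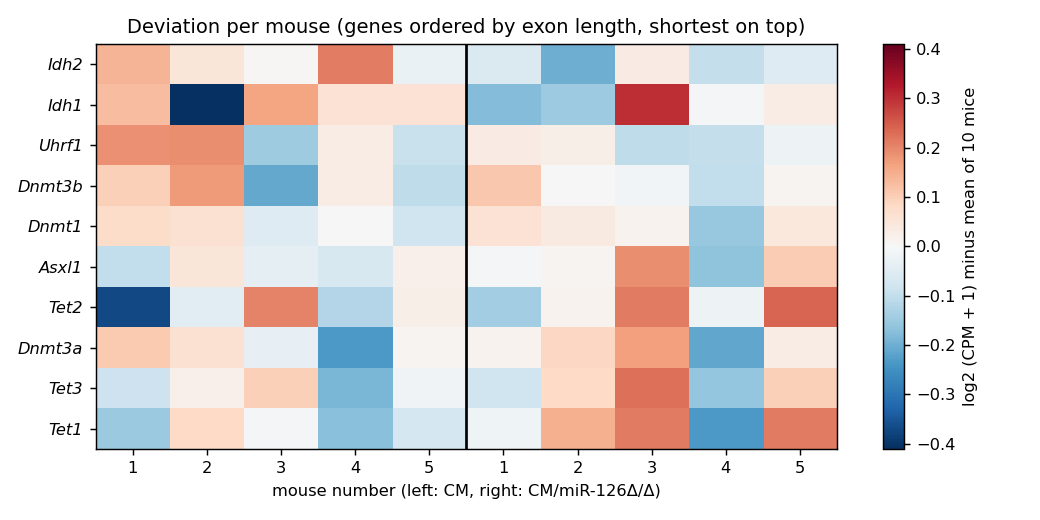
Deviation of each gene in each mouse from its mean over the 10 mice, on the log2 (CPM + 1) scale. CM mouse 1 and CM mouse 2 have low Tet2 and low Idh1 respectively. CM/miR-126Δ/Δ mouse 4 lies below the mean of every gene, furthest for Tet1 (−0.237) and Dnmt3a (−0.214) and least for Idh1 (−0.006).

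The de novo methyltransferases were present at similar levels per length. Dnmt3a (chr12:3806980-3914443, plus strand) had 229.6, 223, 208, 181 and 215 CPM in CM mice 1 to 5 and 215, 226, 239, 183.5 and 218 in CM/miR-126Δ/Δ mice 1 to 5. Mouse 4 was the lowest of both genotypes. The log2 fold change was 0.035 (SE 0.08), and the CM/miR-126Δ/Δ mouse was higher in 4 of 5 same-numbered pairs.

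Dnmt3b (chr2:153649449-153687730, plus strand) had 108, 114, 87.1, 103 and 94.0 CPM in CM mice and 109, 101, 100.1, 94.1 and 102 in CM/miR-126Δ/Δ mice. Both the highest and the lowest value were in CM mice, and the log2 fold change was −0.0019 (SE 0.072). The ratio of Dnmt3b to Dnmt3a per length was 1.11 ± 0.141 in CM and 1.08 ± 0.0921 in CM/miR-126Δ/Δ mice (SD, n = 5). It ranged from 0.962 to 1.31 and from 0.961 to 1.18. Per length, Dnmt3b RNA was above Dnmt3a RNA in 8 of 10 mice, and the amounts of the enzymes were not measured.

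The TET genes were on average higher in CM/miR-126Δ/Δ mice, each with an unadjusted p above 0.05 in the fit on genotype. Tet1 (chr10:62804570-62887324, minus strand), a dioxygenase with a CXXC domain that binds CpG-rich DNA, had 164.5, 194, 182, 162.5 and 174 CPM in CM mice 1 to 5 and 180.5, 203, 212, 155 and 212 in CM/miR-126Δ/Δ mice 1 to 5. The 3 highest values were all in CM/miR-126Δ/Δ mice, and so was the lowest, in mouse 4. The log2 fold change was 0.13 (SE 0.0864, 95% interval −0.0506 to 0.32, unadjusted p = 0.141 and adjusted p = 0.765 by edgeR). With each mouse left out in turn, the unadjusted p was under 0.05 only without CM/miR-126Δ/Δ mouse 4 (0.00825, log2 fold change 0.22). The other such runs gave an unadjusted p of 0.0756 to 0.3025 (edgeR). Without that mouse 94 of all genes were called, against 54 with every mouse. It had the highest mature myeloid markers and, of its genotype, the only negative slope of log2 level on exon length (−0.0515 per doubling). The part of either in the Tet1 value was not tested. With the mouse number as a block Tet1 had 0.13 (95% interval −0.00278 to 0.258, unadjusted p = 0.0543 and adjusted p = 0.573 by edgeR). With a trend on exon length removed from each library, Tet1 had −0.0069 (unadjusted p = 0.904).

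Tet2 (chr3:133463677-133544390, minus strand), the TET gene most often mutated in myeloid neoplasms, had 97.9, 123, 146, 116.5 and 129 CPM in CM mice and 115, 128, 147, 125 and 149.8 in CM/miR-126Δ/Δ mice. The lowest value of the 10 was in CM mouse 1, and the CM/miR-126Δ/Δ mouse was higher in 5 of 5 same-numbered pairs. On genotype alone the log2 fold change was 0.12 (SE 0.0991, 95% interval −0.094 to 0.33, unadjusted p = 0.252; exact permutation test, two-sided, p = 0.333). With the mouse number as a block it was 0.12 (0.00676 to 0.239), with an unadjusted p of 0.0398 and an adjusted p of 0.521 by edgeR. The pairing of mice by number was inferred from these same data. Under the block 2 of the 10 members, Tet2 and Idh2, had an unadjusted p under 0.05, against 8.89% of all genes tested and 12.2% of the expressed genes. An adjusted p under 0.05 was reached by 0 members, against 0.107% of all genes tested.

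Tet3 (chr6:83362374-83456392, minus strand), the most abundant of the family here, had 270.4, 291, 307, 251.7 and 284 CPM in CM mice 1 to 5 and 271, 304, 336, 257 and 307 in CM/miR-126Δ/Δ mice 1 to 5. Tet3 was also higher in the CM/miR-126Δ/Δ mouse of 5 of 5 pairs, by as little as 270.7 against 270.4 CPM in pair 1. The log2 fold change was 0.070 (SE 0.0805, unadjusted p = 0.397 by edgeR; with the block, unadjusted p = 0.215). For 5 pairs the exact test over all 32 sign changes cannot give a p under 0.0625, which is the value for both Tet2 and Tet3, and 5.37% of the 11682 genes were higher in all 5 pairs. The ratios within the family hardly moved: Tet1 to Tet2 was 0.93 ± 0.112 and 0.931 ± 0.0894 per length in CM and CM/miR-126Δ/Δ mice, and Tet3 to Tet2 was 1.82 ± 0.209 and 1.74 ± 0.126 (SD, n = 5).

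**Figure D4:**
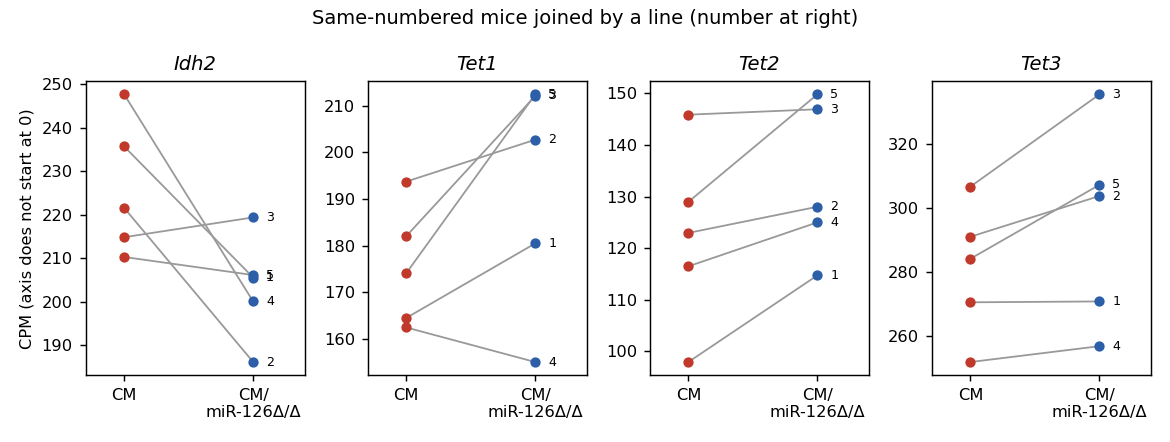
Level of Idh2, Tet1, Tet2 and Tet3 in CPM by genotype (axes do not start at 0), with lines joining mice that carry the same number. All 5 lines go up for Tet2 and Tet3, and 4 of 5 go down for Idh2.

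Idh1 and Idh2 make 2-oxoglutarate from isocitrate with NADP+, Idh1 in the cytosol and Idh2 in mitochondria. Idh2 (chr7:80094847-80115350, minus strand) had 236, 222, 215, 248 and 210.3 CPM in CM mice 1 to 5 and 205.5, 186, 219, 200.01 and 206 in CM/miR-126Δ/Δ mice 1 to 5. The 3 highest values were in CM mice and the 4 lowest in CM/miR-126Δ/Δ mice, while CM/miR-126Δ/Δ mouse 3 lay among the CM values. The log2 fold change was −0.15 (SE 0.0642, 95% interval −0.29 to −0.0143, unadjusted p = 0.0329 and adjusted p = 0.746 by edgeR; exact permutation test, two-sided, p = 0.0317). It was lower in 4 of 5 pairs (exact test over sign changes, p = 0.188). The unadjusted p was 0.0921 without CM mouse 1, 0.128 without CM mouse 4, and 0.0632, 0.0926 and 0.0679 without CM/miR-126Δ/Δ mouse 1, 2 or 4.

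Idh1 (chr1:65158616-65186479, minus strand) had 51.6, 35.4, 53.0, 49.3 and 49.3 CPM in CM mice and 41.7, 42.5, 58.5, 47.0 and 48.3 in CM/miR-126Δ/Δ mice. Mouse 2 of CM stood below the others, and the log2 fold change was −0.0036 (SE 0.112). The ratio of Idh2 to Idh1 per length was 6.93 ± 1.26 in CM and 6.18 ± 0.602 in CM/miR-126Δ/Δ mice (SD, n = 5), and its highest value, 8.97, came from the low Idh1 of CM mouse 2.

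Asxl1 (chr2:153345830-153404007, plus strand), a cofactor of the BAP1 deubiquitinase that acts on histone H2A, had 220.5, 245, 231, 226 and 240.5 CPM in CM mice 1 to 5 and 236, 239, 271, 211 and 254 in CM/miR-126Δ/Δ mice 1 to 5. Both extremes were in CM/miR-126Δ/Δ mice. The log2 fold change was 0.058 (SE 0.069, unadjusted p = 0.417 by edgeR). Use of strand in counting is not given in the sources used here, and the genes listed as antisense to members, Dnmt3aos over Dnmt3a and B230319C09Rik over Tet3, averaged at most 0.0262 CPM.

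The differences of the members went with exon length, as did those of other genes. Among expressed genes the median log2 fold change was −0.065 for the 3585 genes with exons of up to 2000 bases, −0.033 for 4425 genes from there to 4000, 0.019 for 3121 genes to 8000 and 0.086 for 551 longer genes. Idh2 (1702 bases) belongs to the first group, of which 70.8% were lower in CM/miR-126Δ/Δ mice, and Tet1 (14354), Tet3 (11741), Dnmt3a (9947) and Tet2 (9205) to the last, of which 12.9% were lower and 26.3% had an unadjusted p under 0.05 with the block. In the libraries themselves, the slope of log2 level on length per doubling was between −0.0425 and 0.0115 in CM mice and between 0.0218 and 0.0261 in 4 CM/miR-126Δ/Δ mice, with −0.0515 in CM/miR-126Δ/Δ mouse 4.

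When a smooth trend on length was removed from each library, a step chosen after the data were seen, the log2 fold change of Idh2 was −0.09 (95% interval −0.217 to 0.0334, unadjusted p = 0.138 by edgeR). Tet1 came to −0.0069 (unadjusted p = 0.904), Tet2 to 0.039 (unadjusted p = 0.672, and 0.453 with the block) and Tet3 to −0.041 (unadjusted p = 0.448). With the trend removed 0 members had an unadjusted p under 0.05. Length moved with these differences, and its part in them beyond this fit was not tested.

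**Figure D5:**
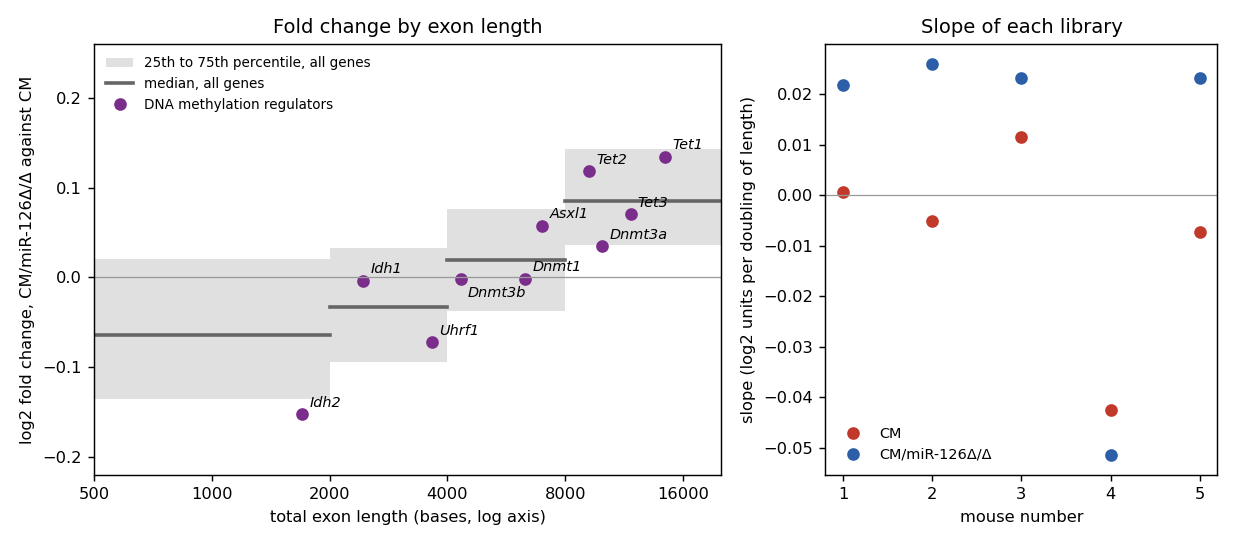
Log2 fold change of each member against its exon length (log axis), over the median and quartiles of all expressed genes in 4 length groups (left), and the slope on length in each library (right). The medians go from −0.065 in the shortest group to 0.086 in the longest, 8 of the 10 members lie between the quartiles of their group, and Idh2 and Dnmt3a lie just below them.

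Of 78 other genes of the same pathways, 76 were tested. An unadjusted p under 0.05 was found for 5 of them, or 6.58% against 6.61% of all genes tested, and for 0 was the adjusted p under 0.05 (edgeR). Among 11 maintenance partners 0 had such a p, including Trim28 (log2 fold change −0.068) and Cdca7 (−0.088), which activates the remodeler HELLS, and the median was −0.068. Pcna, the replication clamp, had −0.16 under the block, with an unadjusted p of 0.0137 in that fit only. Among 8 methyl-CpG readers 0 passed, with Mbd3 at −0.11 and Mbd2 at −0.013, and under the block Zbtb4 had 0.18 (unadjusted p = 0.0201). Of the 76 genes of all lists, the block gave an unadjusted p under 0.05 to 2 that were higher and 6 that were lower. The share under the block was 8.89% over all genes tested and 12.2% over the expressed genes.

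In active demethylation and base excision repair only Apex1, of 14 genes tested, had an unadjusted p under 0.05. This endonuclease, which cuts at abasic sites, had 67.2 ± 8.54 RPKM in CM and 56.6 ± 5.27 in CM/miR-126Δ/Δ mice (log2 fold change −0.25, unadjusted p = 0.0121). Parp1, the most abundant of that list, had −0.11 (unadjusted p = 0.168). Of 9 methyl donor genes tested, Mat2a, which makes S-adenosylmethionine, was at −0.15 (unadjusted p = 0.0168), with 247 to 269 CPM in CM and 213 to 239 in CM/miR-126Δ/Δ mice, which did not overlap. Ahcyl1 was at 0.028, and Mtap, which recycles methionine, had −0.15 with an unadjusted p = 0.0339 under the block.

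Among 10 enzymes of 2-oxoglutarate metabolism 2 had an unadjusted p under 0.05. Idh3b, a subunit of the NAD-dependent isocitrate dehydrogenase, did not overlap between the genotypes (86.4 to 94.1 CPM in CM and 78.4 to 85.5 in CM/miR-126Δ/Δ mice, log2 fold change −0.14, unadjusted p = 0.0109), but with the length trend removed it had −0.077 (unadjusted p = 0.144). Sdhb, a subunit of succinate dehydrogenase, had −0.21 (unadjusted p = 0.0133), and Idh3g −0.094. Mbd5 was the single gene of 10 in the Asxl family and BAP1 list, at 0.25 (unadjusted p = 0.013), higher in 5 of 5 pairs, while Hcfc1 and Ogt were at 0.029 and −0.02. Of 14 proliferation genes 0 had such a p, with Top2a at 0.021 and Mcm6 at −0.070 and a median of −0.054. Over all lists 2 genes, Mat2a and Idh3b, of the 70 that were expressed did not overlap between the genotypes, beside 1.38% of all expressed genes, which is near 1 of 70. After removal of the length trend 4 of the 5 genes still had an unadjusted p under 0.05.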

How the data were processed

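LSK cells sorted from 10 mice were sequenced as 1 library per mouse, and genotype and mouse number were taken from the sample titles. After trimming, the authors aligned reads to mm10 (TopHat2) and assigned them to RefSeq genes by HTSeq 0.6.1p1, the version in the submitters' processing notes. The deposited values are raw counts of reads, not normalized. A second deposited table holds each count divided by 1 constant per library and was not used.

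The 18747 genes with at least 1 count entered a fit by edgeR 4.0.16 (R 4.3.3, limma 3.58.1), using TMM factors and the quasi-likelihood F-test, two-sided, with genotype as the only term. Calls needed p of 0.01 or below, a 1.5-fold change and an average of 1 RPKM in either genotype. CPM was taken on the TMM-scaled library size, and RPKM is CPM divided by the deposited exon length in kilobases. Single genes were also tested by exact permutation of log2 (CPM + 1) with Python 3.11.15, numpy 2.4.6, pandas 2.3.3 and scipy 1.17.1. Intervals in the text are 95% intervals from the fit, and count limits cover counting error only: 3 counts correspond to at most 0.127 CPM. The test was checked on simulated counts.

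The mouse numbers 1 to 5 in the sample titles occur in both genotypes. Across 11682 genes, same-numbered mice deviated from their genotype means together (correlations 0.181 to 0.475, on average 0.34, against −0.0874 for differently numbered mice). Because each gene was centred on its genotype mean, a positive average for same-numbered mice pushes the other average below 0. The negative value is therefore no separate evidence of pairing. The best match was not always the same number: CM mouse 2 was closest to CM/miR-126Δ/Δ mouse 1, and CM mouse 5 to CM/miR-126Δ/Δ mouse 4. The numbers were taken to pair the mice, a choice made from these same data and only partly borne out by them. Counts of pairs, sign-change tests and block fits rest on that choice. Fits with the number as a block are given where they change a call, and for each of the TET genes. Same-numbered mice also shared the Xist pattern, and its part in the correlations and block fits was not tested. What the number stands for is not given in the sources used here.

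The named genes are all 10 members, the genes of each pathway list with an unadjusted p under 0.05 and the 2 of each list with the highest RPKM, the 5 genes nearest to Dnmt1 and to Uhrf1, and cell type markers, of which 1 item is not reported here. Genes named for the block only were chosen after their values were seen. The members, lists and tests were chosen with earlier results of these data known. Alternatives were RLE factors, DESeq2 1.42.0, filters on RPKM and by filterByExpr, no requirement on RPKM, calls by adjusted p, the replicate block and each mouse left out. Removal of a length trend was added after the data were seen. UTR sequences came from GENCODE M1 transcripts (older build mm9, no coordinates used) and matched 82.5% of expressed genes.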

Additional observations from a re-analysis of the deposited data

Results flagged for a closer look

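Dnmt1 in CM/miR-126Δ/Δ mouse 4 was at 565.9 CPM, far below the other 4 mice of its genotype, which had 636.5 to 657.1 CPM. This mouse was also below the mean of all mice for every other member, but hardly so for Idh1 (−0.006 on the log2 scale) and Tet2 (−0.02). Within its genotype it was not the lowest mouse for Tet2, Uhrf1, Idh1 or Idh2. Why its Dnmt1 value was low was not tested. Idh1 in CM mouse 2 was at 35.39 CPM, below the 49.26 to 53.01 CPM of the other CM mice. Of 24 groups examined in this way, chance alone gives about 1.2 such values.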

How the results depend on the processing

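None of the 10 members was called under any alternative run. The number with an unadjusted p under 0.05 was 1 in the fit on genotype, 2 with the replicate block, 0 with the length trend removed (with or without the block), and 0 to 1 when each mouse was left out in turn. Over all genes 54 were called, 115 with the replicate block, 117 with the block and the length trend removed, and 33 to 128 when a mouse was left out (128 without CM mouse 3, 85 and 94 without CM/miR-126Δ/Δ mouse 1 and 4, and 33 without CM/miR-126Δ/Δ mouse 5). Log2 fold changes near 0 changed sign. With RLE factors, DESeq2, the RPKM filter and filterByExpr in turn, Dnmt1 came to 0.0083, 0.0083, 0.018 and 0.017, Dnmt3b to 0.0079, 0.0078, 0.018 and 0.016, and Idh1 to 0.0057, 0.0058, 0.016 and 0.014. Dnmt3b was at 0.00297 with the replicate block. With the length trend removed, without and with the block, Dnmt3a came to −0.059 and −0.057, Tet1 to −0.0069 and −0.0073, Tet3 to −0.041 and −0.044, and Idh1 to 0.043 and 0.044, and Dnmt3b with the block to 0.0025; the cause of these changes was not tested. With a mouse left out, Dnmt1 ranged from −0.012 to 0.0495, Dnmt3a from −0.0041 to 0.10, Dnmt3b from −0.038 to 0.044, Idh1 from −0.094 to 0.052, Idh2 from −0.18 to −0.10, Uhrf1 from −0.10 to −0.021, Tet1 from 0.097 to 0.22, Tet2 from 0.06 to 0.20, Tet3 from 0.0195 to 0.13 and Asxl1 from 0.0144 to 0.12. The block brought no other member than Tet2 across an unadjusted p of 0.05. Counting error was small beside the spread between mice, which sets the width of the intervals.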
